A study of Mus musculus with 6 samples.

Results

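The cells described here are the mesenchymal cells that lacked the Gli1 reporter in mouse Achilles tendon at 7 and at 21 days post-injury (dpi). Barcodes with at least 1000 unique molecular identifiers (UMIs), at least 200 genes and at most 5% mitochondrial UMIs were kept, and a kept barcode was called mesenchymal if it held at least 1 Pdgfra UMI and no UMI of Ptprc or Cdh5. The gate held 6550 of 10899 kept barcodes at 7 dpi and 5626 of 12042 at 21 dpi, together 12176 of the 63329 kept barcodes of the series. Pdgfra encodes a platelet-derived growth factor receptor of fibroblast-like cells, Ptprc the pan-leukocyte protein CD45, and Cdh5 the cadherin of endothelial junctions.

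The study followed tendon cells after Achilles tenotomy, an injury that leads to cartilage and bone within the healing tendon, and asked which cells enter that osteochondral course. All mice were Gli1-CreERT2; Ai9, in which tamoxifen switches on a red fluorescent reporter in cells that express Gli1 and keeps it on in their progeny. Labelled (Gli1+) and unlabelled (Gli1-) cells were sorted from uninjured, 7 dpi and 21 dpi tendon, and each of the 6 resulting fractions was measured in 1 single-cell library. The sample labels give 8 mice for each of the injured time points and the same number of both sexes. Both groups compared here are tamoxifen-treated, tenotomized Gli1-CreERT2; Ai9 mice, sorted for absence of the reporter, and they differ by label only in the time after injury. The ages of these mice are not given in the sources used here. A cell of the Gli1- fraction may still be of the Gli1 lineage if recombination failed in it, since the label rests on the efficiency of tamoxifen-induced Cre. Every library pooled several mice, so that cells could not be assigned to an animal.

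Tendon repair begins with inflammation, passes through a phase of proliferation in which fibroblast-like cells divide and lay down provisional matrix, and continues into remodelling, when collagen is reorganised and matrix-degrading enzymes are active. Resident mesenchymal cells of tendon and its sheath include Scx-expressing tenogenic cells and adventitial fibroblasts marked by Pi16 and Dpp4. After tenotomy in rodents some of these cells form cartilage, which is later replaced by bone through endochondral ossification. The comparison of 21 with 7 dpi asks how the transcriptome of unlabelled mesenchymal cells differs between an early and a later stage of this course.

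The gated cells held 85443803 UMIs at 7 dpi and 61590105 at 21 dpi, with medians of 12252 and 9613 UMIs per cell. Levels are UMIs summed over the gated cells of a library per 1000000 UMIs (CPM), so that a difference in level can come from more cells that express a gene or from more RNA per cell. The libraries differed in the sex of their cells. At 7 dpi, 78.4% of the gated cells held UMIs of the Y-linked genes Ddx3y, Eif2s3y, Kdm5d or Uty and none of Xist, the RNA of the inactive X chromosome, and 1 cell held Xist alone. At 21 dpi, 95.1% held Xist and no Y-linked UMI, and 2 cells held Y-linked UMIs alone, which goes against the equal sexes given in the labels. Whether any library carries the label of another was not tested. Time after injury and sex can therefore not be told apart in this comparison, and only autosomal genes were compared. The libraries at 7 and 21 dpi shared 6 gated barcodes. The gated cells expressed fibroblast markers that the gate did not use, with Col1a1 at 18449 and 13763 CPM and Dcn at 5201 and 7985 CPM. The summed level of the 12 immune markers was 15.2 CPM at 7 dpi and 36.7 CPM at 21 dpi, with Cd3e and Cd3g at 0. Summed markers of other cell types were at 162 and 284 CPM for mural cells, 54.0 and 78.3 CPM for endothelial cells, 83.4 and 109 CPM for epidermis and 77.2 and 96.6 CPM for erythroid cells. Schwann cell markers summed to 33.6 and 40.8 CPM and skeletal muscle markers to 12.5 and 13.9 CPM. The immune and endothelial sums include Ptprc and Cdh5, which the gate holds at 0. The mural marker Rgs5, at 64.2 and 150.2 CPM, and the endothelial marker Emcn, at 6.36 and 13.8 CPM, were past 2-fold higher at 21 dpi. With 1 library per time point there is no replicate and no test between time points, and the 95% intervals below cover counting error only.

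Of 8264 autosomal genes with a mean level of at least 10 CPM, 209 (2.53%) were at least 2-fold higher and 175 (2.12%) at least 2-fold lower at 21 than at 7 dpi. The median log2 ratio of all 8264 genes was -0.05, with quartiles of -0.28 and 0.19. A ratio of 4-fold or more was reached by 53 genes upwards and by 22 downwards. Among the 20 named genes with the highest ratios were Mmp13, Mmp3, Saa3, Hp, Col2a1, Snorc, Ibsp and Spp1. Among the 20 with the lowest were Cntn5, H19, Fabp5, Ccl2, Ccl7, Ccl11, Cxcl10 and Mest. Rose and fell are used below only for genes past 2-fold. Genes under 2-fold that are named beside them were picked after their values were seen.

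**Figure D1:**
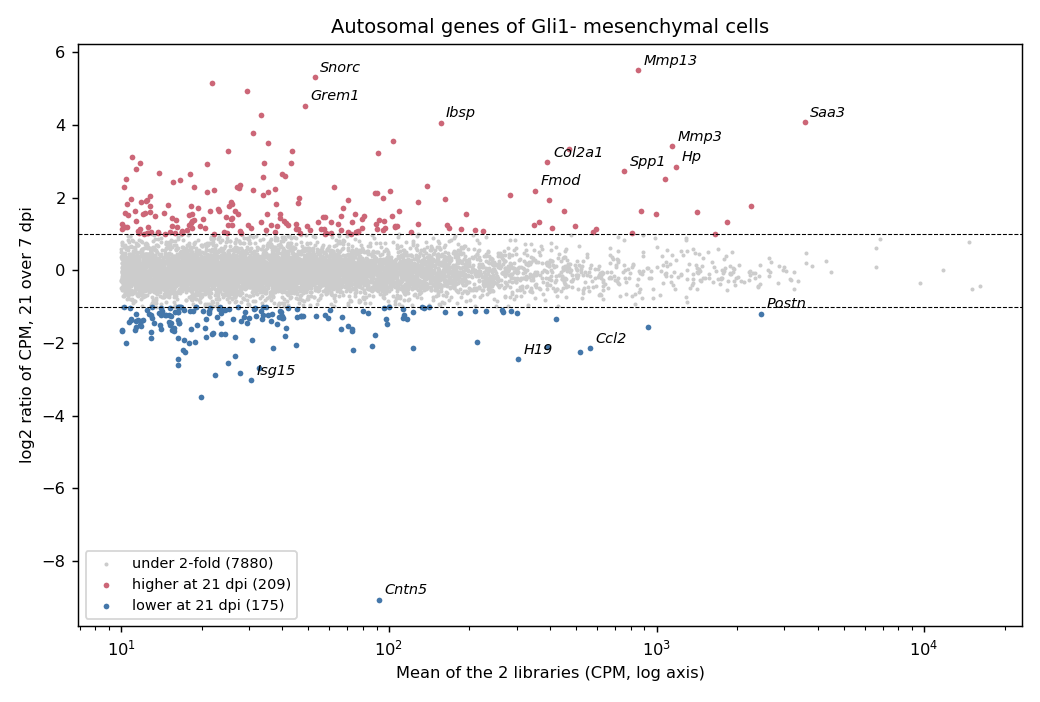
Each point is 1 of 8264 autosomal genes, placed by its mean level in both libraries (CPM, log axis) and its log2 ratio of CPM at 21 over 7 dpi in Gli1- mesenchymal cells, with dashed lines at 2-fold. The 209 red genes lie above the upper line and the 175 blue genes below the lower line, with Mmp13 at 5.50 and Cntn5 at -9.07.

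**Figure D2:**
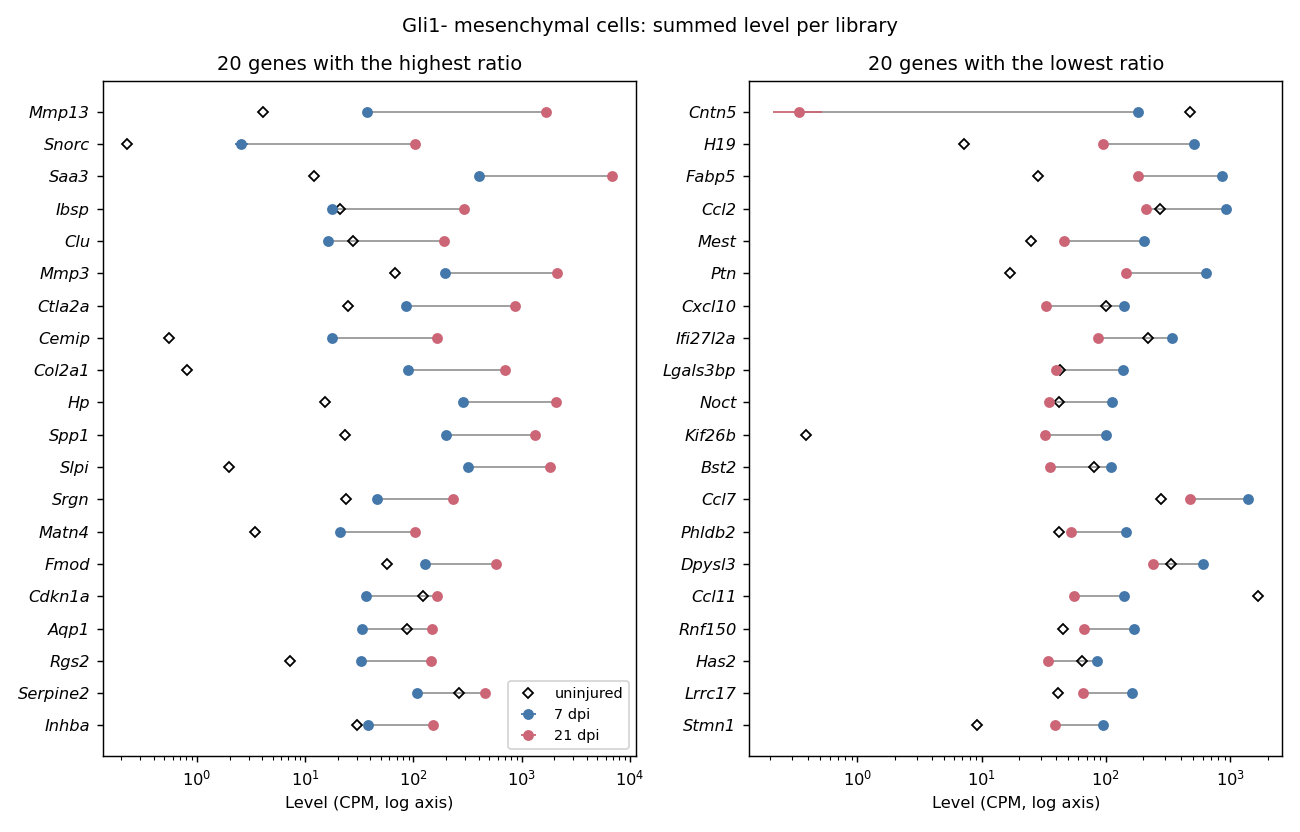
Levels (CPM, log axis, exact Poisson 95% interval, mostly smaller than the point) of the 20 genes with the highest and the 20 with the lowest ratio among named genes with a mean of at least 50 CPM, at 7 dpi (blue), at 21 dpi (red) and in the uninjured Gli1- library (open diamond). Mmp13 ran from 4.09 CPM in uninjured tendon through 36.9 CPM at 7 dpi to 1674 CPM at 21 dpi.

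Among the 13 metalloproteinases and inhibitors measured, 2 rose and none fell. Mmp13 (ENSMUSG00000050578), the collagenase of hypertrophic cartilage and remodelling matrix, was at 4.09 CPM in uninjured tendon, 36.9 CPM at 7 dpi (95% interval 35.7 to 38.2) and 1674 CPM at 21 dpi (1664 to 1684). It had the highest ratio of the named genes, a 45.3-fold rise or 5.50 on the log2 scale (5.45 to 5.55). Mmp3 (ENSMUSG00000043613), a stromelysin that cleaves proteoglycans and activates collagenases, was at 66.9, 197 and 2098 CPM in the same order, which gave a log2 ratio of 3.41 (3.39 to 3.44). Both genes, which lie on chromosome 9, were thus lowest in uninjured tendon and highest at 21 dpi. The gelatinase Mmp2 went from 882 to 1305 CPM, the membrane-bound Mmp14 from 299 to 448 CPM and the inhibitor Timp2 from 1095 to 1641 CPM, all under 2-fold. The aggrecanase gene Adamts5 was at 179.9 and 229.7 CPM. After each cell was thinned to 2000 UMIs, a Mmp13 UMI was found in 3.73% of gated cells at 7 dpi and 32.1% at 21 dpi. Endothelial cells of the same libraries, gated on Cdh5 without Pdgfra or Ptprc and with medians of 3377 and 5695.5 UMIs, were assumed to lack the transcript but held it in 4.32% and 21.9%. The share at 7 dpi was therefore no higher than in endothelial cells. These cells were shallower than the mesenchymal gate, so that a like share or level does not measure its background. How much of either share is background was not tested. In CPM, which weights cells by their content, Mmp13 was at 49.8 in the endothelial and 36.9 in the mesenchymal gate at 7 dpi, and at 205 and 1674 at 21 dpi. The level at 7 dpi, against which the rise is computed, was thus no higher than in endothelial cells.

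The upstream sequences of Mmp13 and Mmp3 are shown because these genes had the highest ratios of the list and share a motif. They are RefSeq sequences of build GRCm38.p6, written 5′ to 3′ on the strand of the gene, with the AP-1 motif TGAGTCA, searched on both strands, in capitals. The first is chr9:7272464-7272500 (+) and the second chr9:7445761-7445797 (+), and the motif begins 35 and 46 bases upstream of the annotated start.
Mmp13: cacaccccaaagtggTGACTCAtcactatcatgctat
Mmp3: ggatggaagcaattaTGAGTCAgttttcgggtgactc
In Mmp13 the motif reads on the opposite strand. Within 250 bases upstream of a start site it occurred in 5.16% of the 27025 genes with a sequence, in 3 of the 16 sequenced genes among the 20 with the highest ratios (Ctla2a, Mmp13 and Mmp3) and in 2 of 10 on the metalloproteinase list. Among the 20 with the lowest ratios the AP-1 motif occurred in 1 of 10 sequenced genes, Cxcl10. No ISRE-like motif, described below, overlaps the printed stretches, though the 250 bases upstream of Mmp13 hold that motif. A match describes the letters and shows no binding.

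Acute-phase and inflammatory genes did not move as a group. Of 15 measured, 3 rose and 1 fell, and the median log2 ratio was 0.15. Saa3 (ENSMUSG00000040026), a serum amyloid A of inflamed stroma, was at 12.2 CPM in uninjured tendon, 400.0 CPM at 7 dpi and 6769 CPM at 21 dpi, a 16.9-fold rise (4.08, 4.07 to 4.10). Hp, which encodes haptoglobin, went from 288 to 2085 CPM (2.85), and Lcn2, an iron-siderophore-binding lipocalin, from 65.9 to 259 CPM (1.97). The other members included Il6, at 109 and 145 CPM, and Ptgs2, the inducible cyclooxygenase, at 258 and 157 CPM, neither past 2-fold. Lif, a cytokine of the interleukin-6 family, fell from 32.7 to 14.5 CPM (-1.17). Slpi, a secreted protease inhibitor of inflamed tissue outside this list, rose from 322 to 1830.1 CPM (2.51).

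Saa3 was in 15.5% of thinned gated cells at 7 dpi (14.7 to 16.4) and 48.0% at 21 dpi (46.7 to 49.3), against 9.95% and 40.7% in endothelial cells, so that the share at 21 dpi was close to the endothelial share. By CPM the mesenchymal gate held 6769 and the endothelial gate 866 at 21 dpi. The transcript was concentrated in part of the cells, as the 5% of gated cells with the most Saa3 held 73.4% of its UMIs at 21 dpi. Among thinned cells with Saa3 at 21 dpi, 44.2% also held Mmp13 and 51.1% held Hp, compared with 21.0% and 24.5% of cells without Saa3. At 7 dpi, Mmp13 was in 3.58% of cells with and 3.76% of cells without Saa3. When cells with 2 or more Saa3 UMIs were left out, a subset chosen after seeing the data, 5216 and 2178 cells remained and the log2 ratio of Mmp13 was 3.28, of Mmp3 1.98, of Hp 1.02, of Slpi 0.65 and of Lcn2 0.19. All 5 ratios were smaller in cells with little Saa3, and Slpi and Lcn2 were no longer past 2-fold. Saa3, which chose the cells, itself rose, and the cut kept 79.6% of the gate at 7 dpi but 38.7% at 21 dpi. The cells kept at the 2 times are thus unlike parts of the gate, which may in part fix these ratios.

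Cartilage genes were higher at 21 dpi, with 10 of 15 measured members past 2-fold upwards, none downwards and a median log2 ratio of 2.21. Col2a1 (ENSMUSG00000022483), the main collagen of cartilage, was at 0.804 CPM in uninjured tendon, 88.3 CPM at 7 dpi and 694 CPM at 21 dpi (2.97, 2.94 to 3.01). Snorc, a chondroitin sulfate proteoglycan of cartilage, rose from 2.57 to 103 CPM, the largest ratio of the list at 5.32 (5.13 to 5.52). Ucma, a secreted protein of immature cartilage, rose from 7.85 to 60.5 CPM (2.95) and Col9a2, a chain of the fibril-associated collagen IX, from 11.6 to 69.9 CPM (2.59). The transcription factors of the programme were level. Sox9 was at 81.8 and 79.5 CPM, Sox5 at 247 and 317 CPM, and Sox6 at 20.3 and 24.6 CPM. The aggrecan gene Acan, at 116 and 171 CPM, also stayed under 2-fold. Col10a1, which marks hypertrophic cartilage, was under the level required for a ratio, at 0.655 and 9.21 CPM.

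The cartilage transcripts lay in few cells. At 21 dpi the 5% of gated cells with the most transcript held 96.6% of the Col2a1 UMIs, 98.3% of the Snorc UMIs and 99.5% of the Ucma UMIs. Thinned cells with 2 or more Col2a1 UMIs made up 0.386% of the gate at 7 dpi (0.250 to 0.569) and 2.97% at 21 dpi (2.54 to 3.45), against 0.654% and 1.78% of endothelial cells. The endothelial gate at 21 dpi held Col2a1 at 644 CPM and Snorc at 88.5 CPM, close to the mesenchymal gate. At 7 dpi it held Col2a1 at 129, Snorc at 10.03, Col9a2 at 15.4 and Ucma at 8.06 CPM. The mesenchymal levels at 7 dpi, against which these ratios are computed, were thus no higher than in endothelial cells. Without cells that held 2 or more UMIs of Col2a1, Bglap or Ibsp, a subset chosen after seeing the data that held 97.4% of the gate at 7 dpi and 88.5% at 21 dpi, the median log2 ratio of the cartilage list was 0.19. In those cells Snorc was at 2.89, Col2a1, which chose them, at 1.02 and Col9a2 at -0.34. The difference in the list was thus small outside cells with these transcripts, which the use of Col2a1 to choose the cells in part fixes.

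Bone and mineral genes behaved alike, with 5 of 7 measured members past 2-fold upwards, none downwards and a median of 1.56. Ibsp (ENSMUSG00000029306), which encodes bone sialoprotein, was at 20.8 CPM in uninjured tendon, 17.6 CPM at 7 dpi and 295 CPM at 21 dpi (4.07, 3.99 to 4.14). Spp1, which encodes osteopontin of mineralised and inflamed tissue, rose from 198 to 1317 CPM (2.73), and Ank, a pyrophosphate transporter that restrains mineralisation, from 19.9 to 58.7 CPM (1.56). Endothelial cells held Ank at 25.8 and 59.8 CPM, no lower than the mesenchymal gate at either time. They held Spp1 at 194 and 530 CPM, a level like that of the mesenchymal gate at 7 dpi and lower at 21 dpi. Bglap, the osteocalcin gene, rose from 5.14 to 19.8 CPM (1.95), but was at 34.9 CPM in uninjured tendon, and its ratio turned to -0.20 without cells with 2 or more Saa3 UMIs. The osteoblast transcription factor gene Runx2 was level at 90.9 and 85.9 CPM. A UMI of Bglap or Ibsp was found in 0.787% of thinned gated cells at 7 dpi and 5.31% at 21 dpi. Endothelial cells held 0.785% and 4.75%, so that the shares were alike in both gates. By CPM the endothelial gate held less Bglap, at 1.07 and 3.83 CPM, and less Ibsp at 7 dpi, at 3.40 CPM. The summed level of Ibsp in the endothelial gate at 21 dpi, 317 CPM, was no lower than in the mesenchymal gate. Like Col2a1, Ibsp lay in few cells, as the 5% of gated cells with the most Ibsp held 97.3% of its UMIs at 21 dpi. Whether those cells express the gene themselves was not tested.

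Tendon genes rose in part. Of 11 measured tendon identity genes, 5 rose and none fell, with a median log2 ratio of 0.93. Fmod (ENSMUSG00000041559), which encodes the collagen-binding proteoglycan fibromodulin, was at 56.4 CPM in uninjured tendon, 127 CPM at 7 dpi and 579 CPM at 21 dpi (2.19, 2.16 to 2.22). Chad, which encodes chondroadherin, rose from 3.27 to 63.1 CPM (4.27), Cilp2, a matrix protein of tendon and cartilage, from 4.24 to 57.9 CPM (3.77), and Comp, the pentameric matrix protein of both tissues, from 165 to 627 CPM (1.93). Several of these genes are also expressed by cartilage. Endothelial cells held Chad at 7.34 and 39.0 CPM and Cilp2 at 6.63 and 27.1 CPM. Both were thus below the endothelial level at 7 dpi, the time against which their ratios are computed. At 21 dpi the 5% of gated cells with the most Chad held 91.2% of its UMIs. The tenogenic transcription factor gene Scx itself was level, at 39.5 and 39.8 CPM. Mkx, another transcription factor of tendon, was at 9.60 and 14.3 CPM. Thbs4, the tendon thrombospondin, was at 495 and 943 CPM, just under 2-fold. Tnmd lies on the X chromosome and was not tested.

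Thinned cells with Scx made up 5.09% of the gate at 7 dpi and 4.76% at 21 dpi, against 5.24% and 2.44% of endothelial cells. The share at 7 dpi was thus no higher than in endothelial cells. Cells with both Scx and Fmod made up 1.77% (1.47 to 2.13) and 3.19% (2.74 to 3.69), against 2.36% and 0.858% of endothelial cells. This share at 7 dpi did not exceed the endothelial share either. Fmod was in 13.3% and 35.7% of all thinned gated cells, against 12.7% and 17.8% of endothelial cells, and so alike in both gates at 7 dpi. Among thinned Scx cells Fmod was in 34.8% at 7 dpi and 66.9% at 21 dpi, above its share in all thinned gated cells at both times. How much of the Scx share at 7 dpi is background was not tested. Small leucine-rich proteoglycans, which space collagen fibrils, included 4 of 9 measured genes that rose and none that fell. Lum, which encodes lumican, went from 1099.7 to 2218 CPM (1.01, and 0.76 without cells with 2 or more Saa3 UMIs) and Dcn, which encodes decorin, from 5201 to 7985 CPM (0.62, under 2-fold).

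Several secreted signals rose. Among 20 BMP pathway genes measured, 3 rose and none fell. Grem1, a secreted BMP antagonist, rose from 4.04 to 93.5 CPM (4.53), Bmp2, an osteoinductive ligand, from 21.2 to 57.2 CPM (1.43), and Id1, a BMP target, from 18.4 to 37.6 CPM (1.03). Bmp2 was not past 2-fold in Pi16 or Dpp4 cells (0.68) or without cells with 2 or more Saa3 UMIs (0.23), where Grem1 was at 1.71. Id1 was at 0.99 in Pi16 or Dpp4 cells, 0.97 in Scx cells and 0.84 without osteochondral cells, all under 2-fold, and at -0.21 in Gli1+ cells. Endothelial cells held Id1 at 419 and 259.8 CPM, far above the mesenchymal gate. The receptor gene Acvr1 was level at 91.0 and 92.2 CPM. Of 15 TGF beta pathway genes 2 rose, the activin subunit gene Inhba from 38.3 to 152 CPM and the receptor gene Tgfbr1 from 38.2 to 78.0 CPM, and none fell. Neither call held throughout, as the log2 ratio of Inhba was 0.74 without cells with 2 or more Saa3 UMIs and that of Tgfbr1 0.94 in Scx cells. Endothelial cells held Tgfbr1 at 45.1 and 78.4 CPM, no lower than the mesenchymal gate. The ligand gene Tgfb2 was at 373 and 216 CPM. Of 11 genes of insulin-like growth factor signalling 3 rose, among them the binding protein genes Igfbp5, from 508 to 1486 CPM, and Igfbp3, from 48.9 to 104 CPM (0.50 on the log2 scale in Scx cells). Igfbp3 was higher in endothelial cells, at 137 and 392 CPM. Igf1 was at 1193 and 1069 CPM. Stc1, which encodes stanniocalcin, rose from 4.59 to 16.4 CPM but was in 1.503% of thinned gated and 6.73% of thinned endothelial cells at 21 dpi, and the log2 ratio was -0.63 without cells rich in Saa3. Of 13 measured PDGF, VEGF and angiopoietin family genes 2 rose, the angiopoietin-like gene Angptl7 from 8.10 to 79.1 CPM and Pdgfa from 32.0 to 69.2 CPM. Without cells with 2 or more Saa3 UMIs the log2 ratio of Pdgfa was 0.36. Endothelial cells held Angptl7 at 29.6 and 36.7 CPM, so that its level at 7 dpi was below that of endothelial cells. They held Pdgfa at 49.1 and 96.1 CPM, above the mesenchymal gate at both times. The Wnt antagonist gene Sfrp4, the only riser of 11 Wnt genes, went from 206 to 491 CPM.

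**Figure D3:**
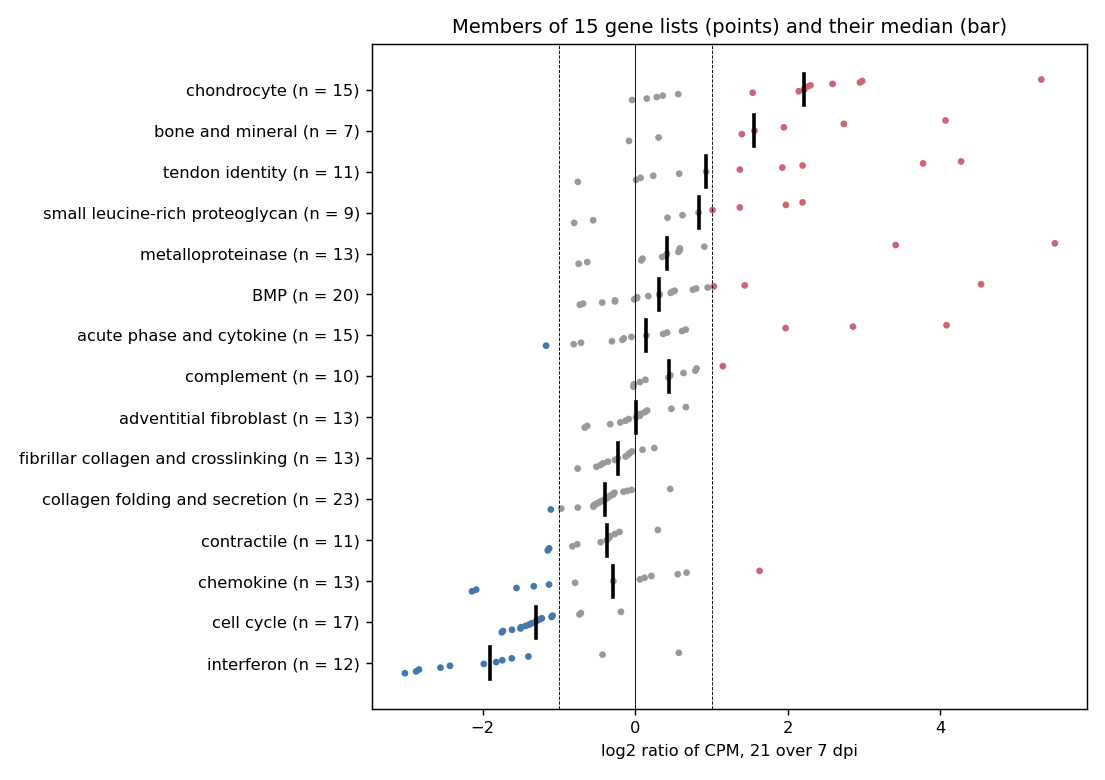
Log2 ratios (21 over 7 dpi) of the measured members of 15 gene lists, 1 point per gene, red past 2-fold upwards and blue past 2-fold downwards, with the median as a black bar. The chondrocyte list has the highest median at 2.21 and the interferon list the lowest at -1.90.

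Interferon-stimulated genes, which cells switch on in answer to viral or self nucleic acids and to interferons, were lower at 21 dpi. Of 12 measured, 10 fell and none rose, and the median log2 ratio was -1.90. Isg15 (ENSMUSG00000035692), a ubiquitin-like modifier, was at 30.8 CPM in uninjured tendon, 54.4 CPM at 7 dpi and 6.71 CPM at 21 dpi (-3.02, -3.17 to -2.88). Ifit1, which binds foreign RNA caps, fell from 39.4 to 5.37 CPM (-2.87), Oasl2 from 48.9 to 6.85 CPM (-2.84) and Ifit3 from 42.7 to 7.27 CPM (-2.55). The levels at 21 dpi lay below those of uninjured tendon for Ifit1, Oasl2 and Ifit3 as well, at 35.7, 36.5 and 28.4 CPM. The more abundant Ifi27l2a fell from 342 to 86.4 CPM and Bst2, which encodes the virus-tethering protein tetherin, from 110.0 to 35.8 CPM. The exceptions were Stat2, a signal transducer at 34.4 and 25.5 CPM, and the transcription factor gene Irf1, at 148 and 220.1 CPM. Of 46 proteasome genes 3 fell, and these were the interferon-inducible catalytic subunits of the immunoproteasome, Psmb8 (-1.13), Psmb9 (-1.04) and Psmb10 (-1.12). In Scx cells Psmb9 (-0.96) and Psmb10 (-0.95) were under 2-fold. Isg15 was in 9.32% of thinned gated cells at 7 dpi and 1.43% at 21 dpi, and in 27.7% and 8.51% of endothelial cells, so that the share was lower at 21 dpi in both gates and the mesenchymal shares lay below those of endothelial cells, in which interferon-stimulated genes are also expressed.

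Upstream sequences are printed for genes among those that fell whose promoters hold 2 copies of GAAA with any 2 bases between them on either strand, the core of the interferon-stimulated response element (ISRE), in capitals. The regions are chr4:156200860-156200911 (-) for Isg15, chr19:34640770-34640828 (+) for Ifit1, chr19:34583358-34583431 (+) for Ifit3, chr8:71537572-71537617 (-) for Bst2 and chr5:92349078-92349117 (-) for Cxcl10, from RefSeq, build GRCm38.p6, 5′ to 3′ on the strand of the gene.
Isg15: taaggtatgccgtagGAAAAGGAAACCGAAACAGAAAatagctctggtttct
Ifit1: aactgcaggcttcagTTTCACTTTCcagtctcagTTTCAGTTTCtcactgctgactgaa
Ifit3: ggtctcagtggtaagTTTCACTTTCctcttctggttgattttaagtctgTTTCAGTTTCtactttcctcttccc
Bst2: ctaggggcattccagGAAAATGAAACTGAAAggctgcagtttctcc
Cxcl10: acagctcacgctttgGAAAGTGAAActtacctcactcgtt
Isg15 holds 3 overlapping copies, Bst2 2 overlapping copies, Ifit1 and Ifit3 2 separate copies each on the opposite strand, and Cxcl10 1 copy. Of the 14 interferon genes on the list with a sequence, 8 held the motif within 250 bases upstream, compared with 3.46% of all 27025 genes. The motif was not confined to genes that fell. It was in 4 of 16 sequenced genes among the 20 with the highest ratios (Mmp13, Saa3, Spp1 and Srgn). Among the 20 with the lowest it was in 2 of 10 (Bst2 and Cxcl10). The AP-1 motif occurs on neither strand of the 5 stretches.

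Chemokine genes moved both ways. Of 13 measured, 5 fell and 1 rose. Ccl2 (ENSMUSG00000035385), which draws monocytes, was at 273 CPM in uninjured tendon, 920.0 CPM at 7 dpi and 209 CPM at 21 dpi (-2.14, -2.17 to -2.11). Its neighbours on chromosome 11, Ccl7 and Ccl11, fell as well, Ccl7 from 1387 to 471 CPM (-1.56) and the eosinophil attractant Ccl11 from 139 to 55.4 CPM (-1.33). The log2 ratio of Ccl11 was -0.93 without cells with 2 or more Saa3 UMIs and -0.73 in Gli1+ cells, both under 2-fold. Ccl11 had its highest level, 1680.2 CPM, in uninjured tendon, whereas Ccl2 and Ccl7 had theirs at 7 dpi. The interferon-induced Cxcl10 fell from 140.1 to 33.0 CPM (-2.09). Cxcl14, a chemokine of resting fibroblasts and epithelia, rose from 428 to 1323 CPM (1.63), below its 1857 CPM in uninjured tendon. The neutrophil attractants Cxcl1 and Cxcl5 stayed under 2-fold, at 1614 and 1322 CPM and at 396 and 631 CPM. A Ccl2 UMI was found in 54.1% of thinned gated cells at 7 dpi and 18.0% at 21 dpi, against 24.2% and 7.19% of endothelial cells.

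Cell cycle genes were lower at 21 dpi. Of 17 measured, 14 fell and none rose, with a median log2 ratio of -1.31. Mki67 (ENSMUSG00000031004), the antigen of dividing cells, was at 1.48 CPM in uninjured tendon, 33.8 CPM at 7 dpi and 10.03 CPM at 21 dpi (-1.75, -1.88 to -1.62). Top2a, a topoisomerase of replicating cells, fell from 33.8 to 10.1 CPM, and Stmn1, a microtubule regulator, from 95.1 to 38.8 CPM. The replication clamp gene Pcna, at 37.8 and 33.1 CPM, was 1 of 3 members under 2-fold. Cdkn1a, which encodes the cell cycle inhibitor p21, rose from 36.6 to 166 CPM (2.18), from 122 CPM in uninjured tendon. Thinned cells with Mki67 or Top2a made up 5.86% at 7 dpi (5.30 to 6.46) and 1.85% at 21 dpi (1.51 to 2.24), and 6.94% and 4.82% in endothelial cells, which can divide themselves.

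Genes listed as imprinted growth genes, that is expressed from the allele of 1 parent in at least some tissues, had a median log2 ratio of -0.55. Of 10 measured, 2 fell and none rose. Which allele was expressed in these cells was not measured. H19 (ENSMUSG00000000031), a noncoding RNA of embryonic and regenerating tissue, was at 7.18 CPM in uninjured tendon, 514 CPM at 7 dpi and 94.7 CPM at 21 dpi (-2.44, -2.48 to -2.40). Mest, a gene of the same class, fell from 201 to 45.8 CPM (-2.13). The remaining members spanned log2 ratios from -0.96 for Plagl1 to 0.62 for the proteoglycan gene Dcn, the only member above 0. Some other genes with low ratios followed the same course, low in uninjured tendon, high at 7 dpi and intermediate at 21 dpi. Ptn, which encodes the heparin-binding growth factor pleiotrophin, was at 16.9, 635 and 146 CPM in that order. Fabp5, a fatty acid carrier, was at 28.3, 855 and 182 CPM, and the kinesin gene Kif26b at 0.386, 100.3 and 32.5 CPM.

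Of 15 matricellular genes, which encode matrix proteins that act on cells more than as scaffold, 2 rose and 1 fell. Postn (ENSMUSG00000027750), which encodes periostin of provisional matrix, was at 76.3 CPM in uninjured tendon, 3418 CPM at 7 dpi and 1498 CPM at 21 dpi (-1.19, -1.20 to -1.18). It was the gene of the list that fell, while Ccn3 (1.63) and Spp1 (2.73) rose. In Pi16 or Dpp4 cells Postn was just under 2-fold (-0.99). The tenascin genes Tnn, at 332 and 169 CPM (-0.98), and Tnc, at 1686 and 912 CPM (-0.89), were just under 2-fold. Has2, a hyaluronan synthase, fell from 84.3 to 33.9 CPM, and Cemip, which takes part in hyaluronan breakdown, rose from 17.6 to 165 CPM (3.23). None of 13 fibrillar collagen and crosslinking genes passed 2-fold, and the list had a median of -0.23. Col3a1 was at 17763 and 12474 CPM. Among 23 genes of collagen folding and secretion 1 fell, the disulfide isomerase gene Pdia6, from 391 to 181 CPM, and 22 had ratios below 0. Of 11 contractile genes 2 fell, Tagln from 317 to 145 CPM and Tpm2 from 223 to 101 CPM. With Prrx1 in place of Pdgfra in the gate their log2 ratios were -0.35 for Tagln and -0.67 for Tpm2, and without cycling cells -0.91 and -0.94, all under 2-fold. The smooth muscle actin gene Acta2 was at 491 and 277 CPM. With cells that held markers of other cell types left out, mural Rgs5 among them, the median of the contractile list moved from -0.37 to -1.38.

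Other genes among the 20 highest ratios belonged to none of the lists. Clu, which encodes the extracellular chaperone clusterin, was at 27.9 CPM in uninjured tendon, 16.3 CPM at 7 dpi and 191 CPM at 21 dpi (3.55, 3.47 to 3.63). Endothelial cells held it at 92.8 CPM at 7 dpi and 136 CPM at 21 dpi. It was in 11.9% and 19.3% of thinned endothelial cells, against 2.79% and 12.9% of thinned gated cells. Ctla2a, which encodes an inhibitor of cathepsin-like proteases, rose from 84.9 to 859 CPM (3.34), and the water channel gene Aqp1 from 33.6 to 147 CPM (2.13). Of the 20 genes with the highest ratios, 4 were higher in the endothelial than in the mesenchymal gate at both times. They were Ctla2a at 1246 and 2499 CPM, Aqp1 at 561 and 729 CPM, Srgn at 264 and 358 CPM and Cdkn1a at 104 and 226 CPM in endothelial cells. Matn4, a matrilin of cartilage and other matrices, rose from 21.2 to 104 CPM, the granule proteoglycan gene Srgn from 46.2 to 231 CPM, the G protein signalling regulator Rgs2 from 33.0 to 144 CPM and the protease inhibitor gene Serpine2 from 109 to 457 CPM. Without cells with 2 or more Saa3 UMIs the log2 ratio of Clu was 2.51, of Srgn 1.72, of Serpine2 1.10 and of Cemip 1.81. Among the lowest ratios, Noct, a gene with a circadian rhythm in many tissues, fell from 111 to 34.7 CPM, and Dpysl3, a cytoskeletal regulator, from 603 to 239 CPM. Lgals3bp, a secreted galectin ligand (-1.78), Phldb2 (-1.47), Rnf150 (-1.33) and Lrrc17 (-1.31) fell as well. Of the 20 lowest, endothelial cells held more Fabp5 (1067 and 349 CPM), Mest (220 and 89.7 CPM) and Bst2 (359 and 74.7 CPM) than the mesenchymal gate at both times. The same held for Cxcl10 (181 and 147 CPM), Noct (133 and 181 CPM), Stmn1 (145 and 106 CPM) and Cntn5, described below. The rest of the 20 were not higher there at both times.

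Adventitial fibroblast genes were level as a list, with none of 13 past 2-fold and a median log2 ratio of 0.01. Pi16, a secreted inhibitor-like protein of adventitial fibroblasts, was at 287 and 454 CPM and Ly6a, the stem cell antigen Sca-1, at 1259 and 1002 CPM. Thinned cells with Pi16 or Dpp4 made up 28.3% of the gate at 7 dpi (27.2 to 29.4) and 37.6% at 21 dpi (36.3 to 38.9), against 9.03% and 8.38% of endothelial cells. Without thinning, the shares were 57.1% and 59.1%. The Tnn share went from 25.3% to 13.0%, with 15.3% and 4.62% in endothelial cells.

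**Figure D4:**
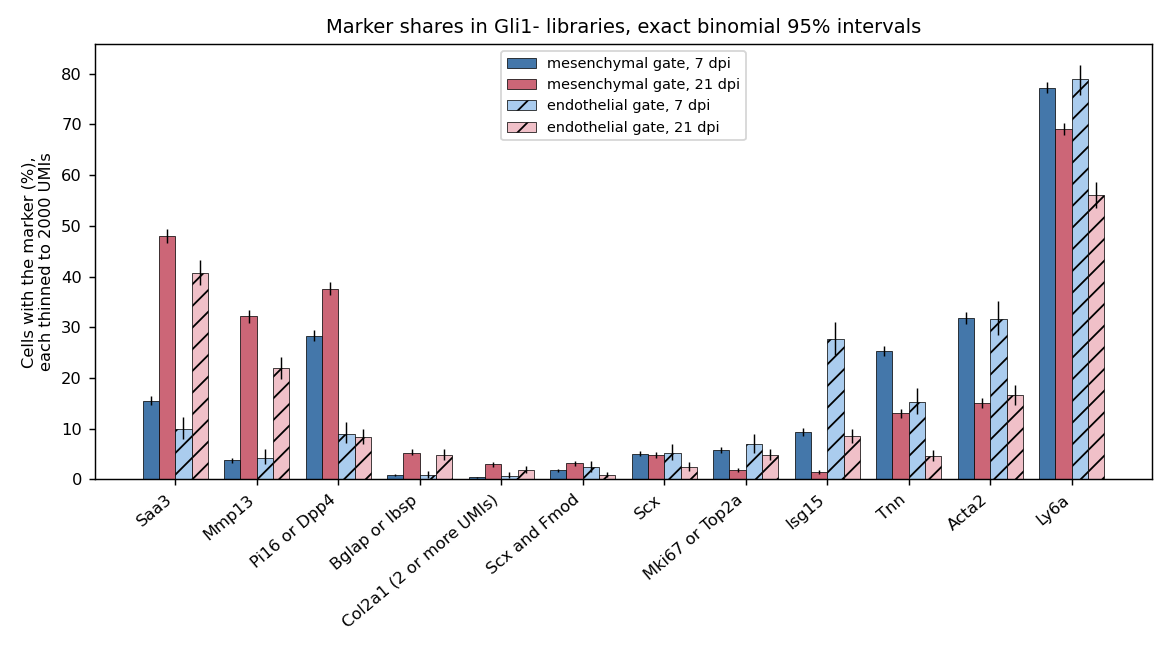
Share of cells with a UMI of each marker (percent, every cell thinned to 2000 UMIs, exact binomial 95% intervals) in the mesenchymal gate of the Gli1- libraries (solid) and in the endothelial gate (hatched), at 7 dpi (blue) and 21 dpi (red). Saa3 reached 48.0% and Mmp13 32.1% of mesenchymal cells at 21 dpi, with 40.7% and 21.9% in endothelial cells.

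Genes of the hedgehog and GNAS/PKA pathways, which the study examined, were mostly level, as were most genes tested. None of 8 hedgehog genes and 1 of 20 GNAS/PKA genes passed 2-fold. Of all 8264 genes 2.53% passed it upwards and 2.12% downwards, so that counts this low are not particular to these lists. Gli1 itself was at 8.88, 2.48 and 4.14 CPM in uninjured, 7 dpi and 21 dpi Gli1- cells, under the level required for a ratio, and Ptch1, a hedgehog receptor and target gene, at 26.4, 22.6 and 25.4 CPM. Gnas, which encodes the stimulatory G protein alpha subunit, was at 1678 and 1457 CPM (-0.20, -0.22 to -0.19). The PKA catalytic subunit genes Prkaca and Prkacb had log2 ratios of -0.10 (-0.20 to 0.00) and 0.02 (-0.04 to 0.08), and the transcription factor genes Creb1 and Creb3 of -0.12 (-0.21 to -0.04) and -0.18 (-0.24 to -0.11). The gene of 20 in this group that passed 2-fold was Pthlh, which encodes a hormone that signals through Gs-coupled receptors, and it fell from 62.0 to 20.4 CPM (-1.60). Of 13 circadian clock genes, Arntl rose from 16.7 to 59.3 CPM (1.82), and Per2, Dbp and Per3 fell (-1.26, -1.25 and -1.22). The time of day of the dissections is not given in the sources used here. Of 21 immediate early and stress genes 2 rose, Nr4a2 (1.17) and Hspa1b (1.07), of 13 other collagens 2, Col7a1 (1.91) and Col18a1 (1.01), and of 10 adipogenic and lipid genes 1 fell, Fabp5. Col7a1 did not pass 2-fold in Gli1+ cells, at 35.1 and 30.9 CPM (-0.18). Col18a1 was not past 2-fold in Scx cells (0.70) or without cells with 2 or more Saa3 UMIs (0.41), and was higher in endothelial cells, at 272 and 528 CPM, than in the mesenchymal gate, at 48.0 and 96.5 CPM. None of 78 cytosolic ribosomal protein genes, 85 oxidative phosphorylation genes, 17 glycolysis and hypoxia genes, 13 elastic fibre genes or 7 limb position genes passed 2-fold.

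The ratios were also read in cells with a UMI of Pi16 or Dpp4 and in cells with a UMI of Scx, without thinning. Among cells with a Pi16 or Dpp4 UMI (3743 at 7 dpi and 3326 at 21 dpi) and among cells with a Scx UMI (1326 and 1059), all 20 genes with the highest and all 20 with the lowest ratios were past 2-fold the same way as in the whole gate, in which they were chosen. The Scx share at 7 dpi was no higher than in endothelial cells, so that these cells are named by the UMI they held and not as a cell type. Mmp13 had a log2 ratio of 4.83 in Pi16 or Dpp4 cells and 5.42 in Scx cells. Saa3 had 3.34 and 4.44, and Ccl2 -2.19 and -1.95. Col2a1 had 3.01 and 1.37, and Ibsp 6.30 and 5.30. Endothelial cells held Col2a1 at 644 CPM and Ibsp at 317 CPM at 21 dpi. Whether the cells of the subsets express these genes themselves was not tested. The subsets share cells with the whole gate and with each other, so that these values are not independent of one another.

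**Figure D5:**
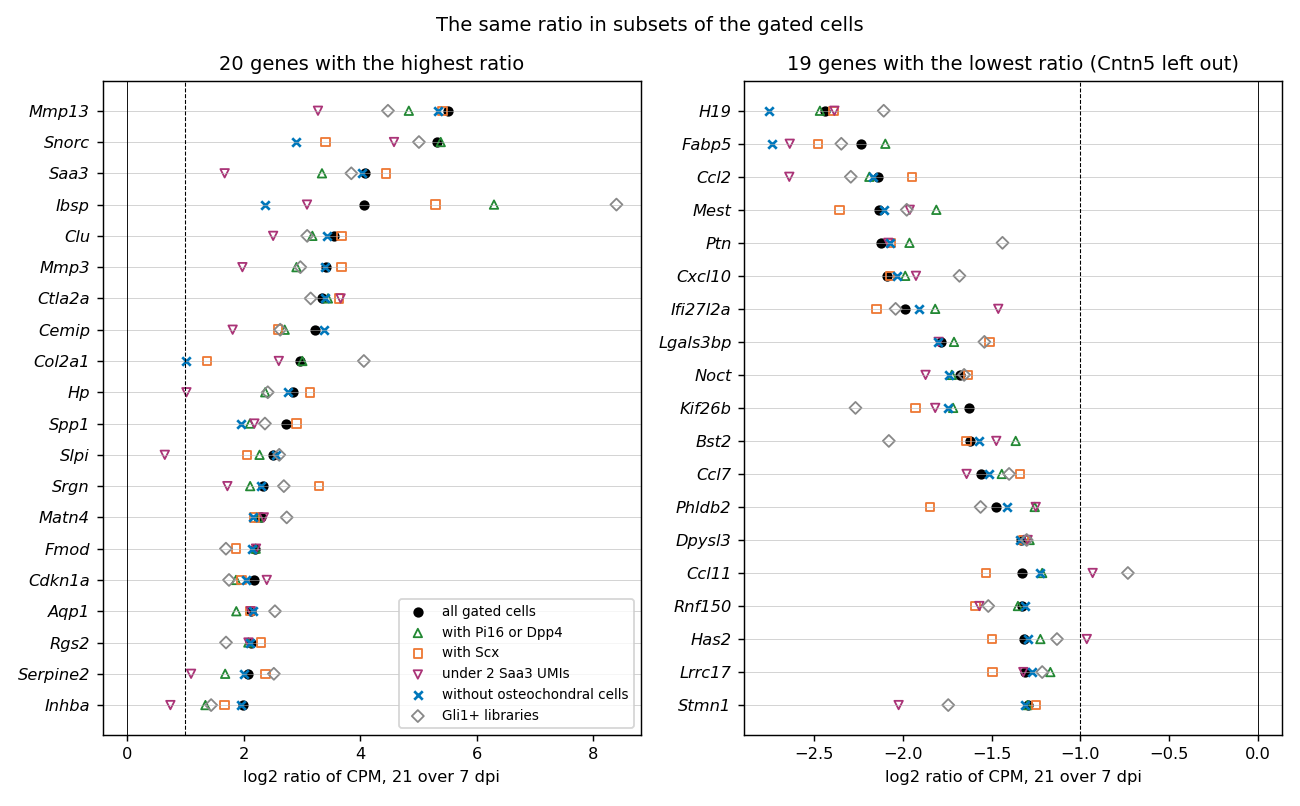
Log2 ratio of CPM at 21 over 7 dpi for the genes with the highest and the lowest ratios, in all gated Gli1- cells (black), in subsets of them (coloured) and in the gated cells of the Gli1+ libraries (grey), with the 2-fold line dashed and Cntn5 left out. Slpi and Inhba fall below 2-fold in cells with under 2 Saa3 UMIs, at 0.65 and 0.74, and Ccl11 and Has2 at -0.93 and -0.96.

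In the Gli1+ fraction, gated in the same way (5221 cells at 7 dpi and 5805 at 21 dpi), 156 of the 209 genes that rose and 147 of the 175 that fell in Gli1- cells were also past 2-fold the same way, which is 74.6% and 84%. Of all 8264 genes, 236 (2.86%) were past 2-fold upwards and 228 (2.76%) downwards in Gli1+ cells. These libraries share no cells with the Gli1- libraries but have the same time points and the same difference in sex, and the labels do not say whether both fractions came from the same mice. Mmp13 was at 59.0 CPM in Gli1+ cells at 7 dpi and 1314 CPM at 21 dpi (4.48), Saa3 at 359 and 5162 CPM (3.85), and Isg15 at 61.7 and 5.68 CPM (-3.44). Ibsp had the larger ratio in Gli1+ cells, at 1.49 and 504 CPM (8.40 against 4.07 in Gli1- cells). Col2a1 was at 17.7 and 296 CPM (4.06). The differences between the fractions were not tested.

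Sex differences were read, after seeing the data, from the uninjured Gli1+ library, whose gated cells included 1014 with Xist alone and 377 with Y-linked UMIs alone. Of 8226 genes with enough UMIs there, 66 (0.802%) were at least 2-fold higher and 73 (0.887%) at least 2-fold lower in female than in male cells. Among the genes that rose from the male 7 dpi to the female 21 dpi library, 13 of 192 with a value were also past 2-fold higher in female cells, and among those that fell 8 of 172 were past 2-fold lower. Mmp13 was at 6.09 CPM in female and 13.5 CPM in male cells, opposite in direction to its rise. Saa3 was at 8.52 and 0.521 CPM, and Mmp3 at 53.7 and 26.6 CPM, in the direction of their rise. The Saa3 values rest on few UMIs, 93 in all gated cells of that library. The log2 ratio of Saa3 between the sexes was 4.03, with a wide interval of 2.14 to 7.10. Col2a1 was at 54.9 and 10.9 CPM, and Fmod at 408 and 976 CPM. The median of the interferon list between the sexes was -0.05 and that of the cell cycle list 0.63. These cells come from uninjured tendon and an unknown number of mice, and the part of sex in the ratios after injury was not tested.

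Cntn5, an autosomal gene of a neuronal adhesion protein, had the lowest ratio of all 8264 genes. It was at 477 CPM in uninjured, 183 CPM in 7 dpi and 0.341 CPM in 21 dpi Gli1- cells (-9.07, -9.76 to -8.45). In Gli1+ cells it was at 2.89, 150.3 and 0.273 CPM. Endothelial cells held it at 381 CPM at 7 dpi and 0.376 CPM at 21 dpi. In the uninjured Gli1+ library, male cells held 10.7 CPM and female cells 0.0937 CPM. The transcript was thus high in the 3 libraries made of male cells, near 0 in those made of female cells, and lower in the male cells of the mixed library than in the male libraries.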

How the data were processed

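Single-cell 3' libraries of Gli1+ and Gli1- Achilles tendon cells were deposited by the authors as matrices of UMI counts per gene and barcode, not normalized. The submitters' processing notes name Cell Ranger 3.1.0, STAR and mm10, whereas the deposited matrix headers name Cell Ranger 9.0.0. The counts of gated cells were summed per library and expressed per 1000000 UMIs (CPM). Chromosomes came from the GENCODE annotation by gene ID (32012 of 33696 genes) or symbol (111), and 1573 genes had none, which left 30259 autosomal genes. Genes with a mean of at least 10 CPM were compared, with exact conditional binomial intervals for ratios, exact Poisson intervals for levels and exact binomial (Clopper-Pearson) intervals for shares, all at 95% and for counting error only. Named genes were the 20 highest and 20 lowest ratios at a mean of at least 50 CPM (unnamed gene models, mitochondrial and hemoglobin genes left out), up to 4 members past 2-fold each way per list, and genes of the hedgehog, PKA, gate and sex checks. Members and lists were chosen with earlier results of these data known. No doublet caller was run. Doublets in which a Ptprc or Cdh5 UMI was captured fall outside the gate, others may remain, and an alternative left out cells with over 2 times the median UMIs. Promoter sequences were RefSeq's. Alternatives covered scaling (TMM factors of edgeR 4.0.16 in R 4.3.3), low-value filters, thresholds, gates and cell subsets. Computation used Python 3.11.15, numpy 2.4.6, scipy 1.17.1, pandas 2.3.3 and matplotlib 3.10.9 and was tested on simulated data.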

Additional observations from a re-analysis of the deposited data

Results flagged for a closer look

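Krtdap, a gene of differentiating epidermis, was past 2-fold in opposite directions in the 2 sorted fractions. In Gli1- mesenchymal cells it went from 6.28 CPM at 7 dpi to 19.3 CPM at 21 dpi, a log2 ratio of 1.62. In Gli1+ mesenchymal cells it went from 221 to 59.4 CPM, a log2 ratio of -1.90. The difference between the fractions was not tested. The 9 epidermal markers summed to 83.4 and 109 CPM in the Gli1- gate and to 4742 and 843 CPM in the Gli1+ gate at 7 and 21 dpi, and their part in the Krtdap values was not tested. No group had enough samples for a check of single samples that stand apart.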

How the results depend on the processing

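No paired analysis was possible because each group is 1 library without a replicate number, and for the same reason no replicate could be left out. Without a filter on low values 2004 genes were higher and 2194 lower, at a mean of at least 50 CPM 82 and 44, and at a log2 threshold of 0.58 562 and 595. Under the other settings 169 to 243 genes were higher and 140 to 232 lower. TMM scaling moved all log2 ratios by 0.04 and median-ratio scaling by 0.05. Thinning to 2000 UMIs gave gate shares of 31.4% at 7 dpi and 24.7% at 21 dpi. Without thinning, the marker shares at 7 and 21 dpi were 57.1% and 59.1% for Pi16 or Dpp4, 20.2% and 18.8% for Scx, 13.8% and 16.4% for Scx with Fmod, 2.29% and 8.62% for Col2a1, 3.37% and 15.5% for Bglap or Ibsp, 20.7% and 5.95% for Mki67 or Top2a, 41.8% and 83.8% for Saa3, 54.7% and 29.4% for Tnn, 71.2% and 39.9% for Acta2, and 97.1% and 89.6% for Ly6a. Of 91 named genes past 2-fold, 65 stayed past 2-fold the same way under every alternative that gave a value, and 26 did not, among them Lum, Col18a1, Psmb9, Psmb10, Tgfbr1, Dbp, Hspa1b and Postn. Of the 91, 3 changed sign, all under subsets added after seeing the data. These were Bglap (-0.20) and Stc1 (-0.63) without cells with 2 or more Saa3 UMIs, and Col9a2 (-0.34) without cells with 2 or more UMIs of Col2a1, Bglap or Ibsp. Of 7 named genes under 2-fold, 5 changed sign in 13 alternative values between -0.27 and 0.07. The cause was not tested. Of 518 alternative list medians 501 stayed within 0.58 on the log2 scale. The list medians that moved included the chondrocyte list (0.66 in Scx cells), bone and mineral (0.97), cell cycle (-2.21) and chemokine (-0.94) without cells with 2 or more Saa3 UMIs. Comparisons within 1 sex were not run, since 1 cell with Xist alone at 7 dpi and 2 cells with Y-linked UMIs alone at 21 dpi were found.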
